A study of Mus musculus with 8 samples.

Results

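Levels of the nuclear genes of the mitochondrial respiratory chain, with cytochrome c, were followed in RNA of whole testis from C57BL/6 male mice. The set took every gene row whose symbol begins with Nduf or Uqcr, the rows Sdha to Sdhd, the nuclear Cox4 to Cox8 subunit genes, Cycs and Cyct, and left out names that mark a pseudogene (-ps). It held 76 of 54087 gene rows. The testes were homozygous mutant for Dnmt3A (KO/KO, called KO) or wildtype (WT/WT, called WT), and came from males aged 19 or 25 days post partum (dpp). The 4 groups were thus KO at 19 dpp, WT at 19 dpp, KO at 25 dpp and WT at 25 dpp, with 2 libraries in each and 8 in all. The product of Dnmt3A is an enzyme that methylates CpG sites of DNA without a methylated template. The labels name no Cre driver and no deleted exon, and do not say that the 2 libraries of a group came from separate animals, so p-values measure the spread between these libraries, which may be technical.

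The respiratory chain passes electrons from NADH (complex I) and succinate (complex II) through complex III and the small carrier cytochrome c to complex IV, cytochrome c oxidase, which reduces oxygen. Complexes I, III and IV have core subunits, among them those that carry the redox centres, and mostly small accessory subunits. Assembly factors build each complex without staying in it. Several small complex IV subunits, and cytochrome c itself, exist in more than 1 copy in the genome: a general form found in most tissues, and a form known in mammals mainly from germ cells of the testis. In the first wave of mouse spermatogenesis the germ cells pass from meiotic prophase to round spermatids over about the ages studied here, and spermatocytes silence their X chromosome at the pachytene stage.

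The gene counts of a library lay between 22515812 and 50445334, and the respiratory chain genes took between 0.418% and 0.644% of them. Levels are CPM (counts over the TMM-scaled library size, as CPM is usually defined) unless given per kb of exon. At 19 dpp whole-gene Dnmt3a had 114 and 112 CPM in KO and 147 and 141 CPM in WT. At 25 dpp its level was 76.8 and 67.2 CPM in KO and 48.7 and 70.0 CPM in WT. Since the deleted part is not named, this level is no check of the genotype labels. Cell type markers differed between the groups. The summed level of 12 genes of pachytene to secondary spermatocytes was 103 and 151 CPM in KO and 954 and 2395 CPM in WT at 19 dpp, and 659 and 1326 CPM in KO and 12090 and 9378 CPM in WT at 25 dpp. For 10 genes of round spermatids it was 9.3 and 11.5 CPM in KO and 37.1 and 106 CPM in WT at 19 dpp, and 37.5 and 64.7 CPM in KO and 2241 and 1139 CPM in WT at 25 dpp. The sum of 22 Sertoli cell markers ran the other way, at 11354 and 10178 CPM in KO and 6117 and 5381 CPM in WT at 19 dpp, and it was 8752 and 7789 CPM in KO and 2715 and 3455 CPM in WT at 25 dpp. Fewer cells of a type and less RNA per cell cannot be told apart in whole tissue, and the part of cell makeup in the results below was not tested.

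The comparison turns on 4 pairs of genes. Cox6b2 (chromosome 7, 4751792 to 4753094) is the testis form and Cox6b1 (chromosome 7, 30616861 to 30626151) the general form of a complex IV subunit on the side of the intermembrane space. Cox7b2 (chromosome 5, 71442824 to 71548205) and the X-linked Cox7b (chromosome X, 106015700 to 106022450) are the matching forms of a small membrane subunit, as are Cox8c (chromosome 12, 102899316 to 102900526) and Cox8a (chromosome 19, 7215153 to 7217616). Cyct (chromosome 2, 76353942 to 76360450) makes testis cytochrome c and Cycs (chromosome 6, 50562563 to 50566538) the general one. Coordinates are those of mm10, from GENCODE M21, and all 8 genes are protein coding.

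RefSeq promoter windows (GRCm38.p6, 300 bases that mostly end shortly after the gene start) matched 61 of the 76 genes, with 63 windows. By the GENCODE M21 starts, the windows of Ndufa12 and Ndufa13 lie inside the gene, and that of Ndufa1 ends before its start. Cox8c had no promoter window, so the windows of the other 3 pairs are shown. CpG sites, on which Dnmt3A acts, are in capitals, and each window is written 5′ to 3′ on the strand of its gene. RNA counts hold no measure of DNA methylation. The windows are chr2:76360404-76360703 (minus strand) for Cyct, chr6:50566520-50566819 (minus) for Cycs, chr7:4753045-4753344 (minus) for Cox6b2, chr7:30626065-30626364 (minus) for Cox6b1, chr5:71548156-71548455 (minus) for Cox7b2 and chrX:106015450-106015749 (plus) for Cox7b.
Cyct: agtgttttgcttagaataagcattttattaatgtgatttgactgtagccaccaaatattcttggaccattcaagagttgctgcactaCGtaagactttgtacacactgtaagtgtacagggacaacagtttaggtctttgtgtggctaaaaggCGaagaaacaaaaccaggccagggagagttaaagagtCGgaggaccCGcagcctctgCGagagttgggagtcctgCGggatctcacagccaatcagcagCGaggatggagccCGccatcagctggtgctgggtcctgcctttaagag
Cycs: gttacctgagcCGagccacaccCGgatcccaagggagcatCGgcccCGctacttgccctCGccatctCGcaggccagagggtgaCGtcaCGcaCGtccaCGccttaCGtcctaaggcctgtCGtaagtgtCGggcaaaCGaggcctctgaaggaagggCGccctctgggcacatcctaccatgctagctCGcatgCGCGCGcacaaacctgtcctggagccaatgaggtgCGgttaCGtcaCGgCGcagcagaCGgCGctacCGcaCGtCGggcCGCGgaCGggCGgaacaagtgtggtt
Cox6b2: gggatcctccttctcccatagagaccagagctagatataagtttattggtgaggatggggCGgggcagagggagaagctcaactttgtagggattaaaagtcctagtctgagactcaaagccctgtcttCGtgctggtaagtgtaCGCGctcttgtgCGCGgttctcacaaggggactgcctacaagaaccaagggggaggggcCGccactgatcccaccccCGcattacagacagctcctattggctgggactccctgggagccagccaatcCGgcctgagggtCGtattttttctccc
Cox6b1: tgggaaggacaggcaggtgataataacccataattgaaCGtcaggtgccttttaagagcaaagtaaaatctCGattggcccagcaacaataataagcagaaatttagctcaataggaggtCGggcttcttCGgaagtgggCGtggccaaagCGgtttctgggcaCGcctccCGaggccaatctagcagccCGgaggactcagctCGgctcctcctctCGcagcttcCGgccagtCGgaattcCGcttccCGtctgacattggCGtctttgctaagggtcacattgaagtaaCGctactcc
Cox7b2: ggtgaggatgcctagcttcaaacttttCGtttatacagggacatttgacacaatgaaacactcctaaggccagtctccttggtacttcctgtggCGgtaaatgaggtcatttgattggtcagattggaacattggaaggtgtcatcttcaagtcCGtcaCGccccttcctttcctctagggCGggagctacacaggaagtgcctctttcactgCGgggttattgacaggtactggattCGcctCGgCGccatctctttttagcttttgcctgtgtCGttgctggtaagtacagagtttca
Cox7b: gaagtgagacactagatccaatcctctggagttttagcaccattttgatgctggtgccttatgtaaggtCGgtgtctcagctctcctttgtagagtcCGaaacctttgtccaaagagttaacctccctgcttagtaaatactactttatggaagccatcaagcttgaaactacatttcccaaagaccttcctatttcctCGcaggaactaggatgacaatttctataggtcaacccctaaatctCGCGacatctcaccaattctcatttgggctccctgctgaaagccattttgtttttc
The windows of these 3 testis forms held few CpG sites, 8 in Cyct, 10 in Cox6b2 and 10 in Cox7b2. Their general partners held 32 in Cycs, 17 in Cox6b1 and 5 in Cox7b, and Cox8a held 19. The median was 19.0 over the 63 windows of respiratory chain genes and 7.0 over all 32851 windows. These 3 testis forms thus lay close to the typical promoter and below most genes of the set. The windows were searched on both strands for 4 motifs of factors known to act on respiratory genes. The NRF1 motif GCATGCGC was in 10 of the 63 windows (15.9%, against 2.71% of all windows), the ETS motif CCGGAAGT in 4 (6.35%, against 3.89%), the CRE TGACGTCA in 5 (7.94%, against 1.79%) and CCAAT in 26 (41.3%, against 37.4%). Cycs held the NRF1 motif and the CRE, and Cox8a held the ETS motif. The windows of Cyct, Cox6b2 and Cox7b2, like those of the general forms Cox6b1 and Cox7b, held none of these 3 sets of letters. All of these windows, with those of Cycs and Cox8a, held CCAAT.

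The first comparison asks how mutant testis differed from wildtype at 19 dpp. The 4 testis isoforms were the clearest change: all 4 were lower in KO, by between 3.03 and 4.82 on the log2 scale. The 2 KO libraries lay below both WT libraries for each, but how many of all genes separate in this way was not counted. Of the 76 genes 74 passed the filter on low counts and were tested, and 3 were higher and 13 lower in KO (edgeR quasi-likelihood test, adjusted p under 0.05). Over all 23353 genes 22.0% were called, 8.80% higher and 13.2% lower. The median log2 fold change was −0.26 over the 74 and 0.00 over all genes tested. Without the testis isoforms the counts were 3 higher and 9 lower of 70.

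Cox8c changed most. It had 2.30 and 3.94 CPM in KO and 50.3 and 129 CPM in WT at 19 dpp, a log2 fold change of −4.82 (SE 0.569, adjusted p = 0.00732). Cox6b2 had 6.12 and 9.85 CPM in KO and 51.2 and 104 CPM in WT (−3.27, SE 0.393, adjusted p = 0.00732). In both genes replicate 2 of WT was well above replicate 1. Cox7b2 had 3.81 and 9.53 CPM in KO and 44.8 and 71.9 CPM in WT (−3.11, SE 0.459, adjusted p = 0.00896). Cyct had 4.06 and 5.99 CPM in KO and 29.8 and 52.9 CPM in WT (−3.03, SE 0.355, adjusted p = 0.00714). All 4 genes therefore stood below 10 CPM in KO and above 29 CPM in WT. Without replicate 1 of KO at 19 dpp none of the 4 passed the edgeR test, nor did any other gene at that age. The log2 fold changes were then −4.50 for Cox8c, −2.97 for Cox6b2, −2.61 for Cox7b2 and −2.78 for Cyct. With any 1 of the other libraries left out all 4 were called at 19 dpp.

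At 25 dpp the same 4 genes were again lower in KO. The libraries of the groups did not overlap, and the share of all genes without such overlap was not counted. Cox8c had 40.5 and 67.7 CPM in KO and 523 and 427 CPM in WT (−3.13, SE 0.509, adjusted p = 0.00215). Cox6b2 had 40.7 and 50.0 CPM in KO and 311 and 262 CPM in WT (−2.66, SE 0.377, adjusted p = 0.00125). Cox7b2 had 38.1 and 53.4 CPM in KO and 194 and 177 CPM in WT (−2.02, SE 0.431, adjusted p = 0.00623). This adjusted p was the highest of the 4, and without replicate 1 of KO at 25 dpp its adjusted p was 0.0517. Cyct had 24.2 and 36.6 CPM in KO and 115 and 111 CPM in WT (−1.89, SE 0.332, adjusted p = 0.00236). Over all genes 63.5% were called at 25 dpp, so a call alone sets no gene apart there. The KO libraries of 25 dpp lay near or below the WT libraries of 19 dpp in all 4 genes, a comparison across genotype and age that was not tested.

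Between 19 and 25 dpp the testis isoforms rose in both genotypes. In KO the log2 fold change of 25 over 19 dpp was 4.09 for Cox8c (SE 0.554, adjusted p = 0.00866), 2.76 for Cox7b2 (SE 0.453, adjusted p = 0.0120), 2.59 for Cyct (SE 0.350, adjusted p = 0.00788) and 2.50 for Cox6b2 (SE 0.383, adjusted p = 0.0103). In WT it was 2.41 for Cox8c (SE 0.494, adjusted p = 0.00625), 1.67 for Cox7b2 (SE 0.426, adjusted p = 0.0142), 1.45 for Cyct (SE 0.327, adjusted p = 0.00773) and 1.89 for Cox6b2 (SE 0.366, adjusted p = 0.00486). The KO effect at 25 dpp minus that at 19 dpp was positive for all 4, between 0.61 and 1.69, and none passed the test of that difference (adjusted p between 0.126 and 0.445). With libraries scaled to total counts 2 of the 4 passed it. All 4 rises in KO were lost without replicate 1 of KO at 19 dpp (adjusted p between 0.0731 and 0.0958), Cox6b2 and Cox7b2 also without replicate 2 of KO at 25 dpp, and Cox7b2 in WT without replicate 1 of WT at 25 dpp.

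**Figure D1:**
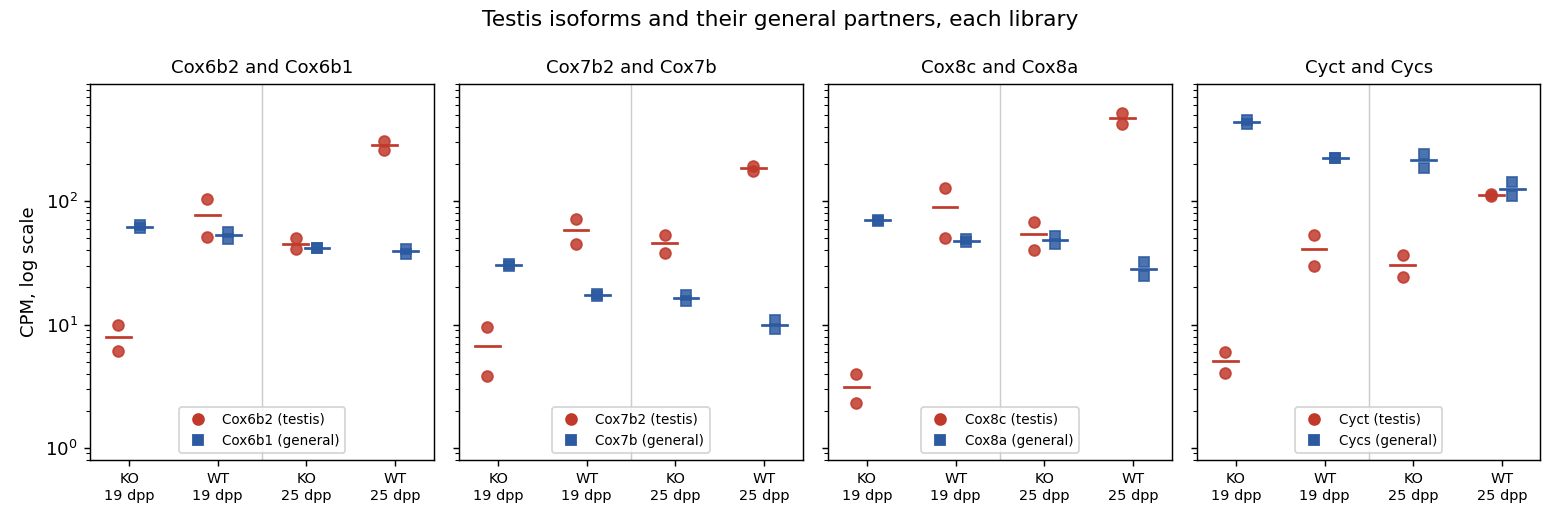
CPM on a log scale for each testis isoform (red circles) and its general partner (blue squares) in each library of the 4 groups, with the group mean as a line. Red points lie lowest in KO at 19 dpp and highest in WT at 25 dpp (Cox8c at 2.30 and 3.94 CPM against 523 and 427 CPM), while blue points mostly run the other way, a direction of the general forms that depends on the scaling of libraries.

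The general partners did not follow. Cycs was higher in KO, with 457 and 420 CPM in KO and 223 and 223 CPM in WT at 19 dpp (0.98, SE 0.173, adjusted p = 0.0106), and 187 and 243 CPM in KO and 110 and 142 CPM in WT at 25 dpp (0.77, SE 0.172, adjusted p = 0.00578). Cox7b had 30.9 and 29.8 CPM in KO and 17.1 and 17.6 CPM in WT at 19 dpp (0.80, SE 0.177, adjusted p = 0.0189), and 17.5 and 15.5 CPM in KO and 9.16 and 10.8 CPM in WT at 25 dpp (0.73, SE 0.178, adjusted p = 0.00848). The groups did not overlap for either gene at either age, and the share of all genes without such overlap was not counted. Cycs shares near-identical stretches with 14 other genes of GENCODE M21, so its counts are uncertain. Cox8a had 71.1 and 68.7 CPM in KO and 49.3 and 46.7 CPM in WT at 19 dpp, which did not pass the test (0.54, adjusted p = 0.0544), and 52.1 and 44.8 CPM in KO and 24.6 and 32.0 CPM in WT at 25 dpp, which did (0.78, SE 0.168, adjusted p = 0.00497). Cox6b1 did not pass at either age, at 60.6 and 64.1 CPM in KO and 49.4 and 56.3 CPM in WT at 19 dpp (0.24, adjusted p = 0.253) and 41.4 and 41.9 CPM in KO and 37.2 and 41.1 CPM in WT at 25 dpp (0.09, adjusted p = 0.591). With age all 4 fell in WT, by between 0.43 and 0.82 on the log2 scale. In KO Cycs (−1.03), Cox7b (−0.88) and Cox6b1 (−0.58) fell with age and Cox8a did not pass the test (−0.53, adjusted p = 0.0633). Some of these calls rest on single libraries. At 19 dpp Cycs was not called without replicate 1 of KO (adjusted p = 0.102) or replicate 2 of WT (0.0504), and Cox7b when any 1 of the 4 libraries of that age was left out (between 0.0709 and 0.140). At 25 dpp Cox7b was not called without replicate 1 of KO (0.0536). With age in WT, Cox6b1 was not called without replicate 2 of 19 dpp (adjusted p = 0.145) or replicate 1 of 25 dpp (0.0809). With age in KO, Cox6b1 and Cox7b were not called when any 1 of the 4 KO libraries was left out (adjusted p between 0.0626 and 0.151), nor Cycs without replicate 1 of either age (0.100 at 19 dpp and 0.0586 at 25 dpp).

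These directions of the general forms rest on how the libraries were scaled. With libraries scaled to the Sertoli marker sum the median of all genes moved to −0.87 at 19 dpp and −1.56 at 25 dpp for KO over WT, and to 0.92 for 25 over 19 dpp in WT. On that scale Cycs was at 0.07 at 19 dpp and −0.64 at 25 dpp, Cox7b at −0.10 and −0.70, and Cox8a at −0.65 at 25 dpp, each still above the median gene. The 4 testis isoforms were lower in KO under each of the 3 other scalings tried, with medians at 19 dpp of −4.10 (Sertoli markers), −3.26 (total counts) and −3.20 (DESeq2 size factors), against −3.19.

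A share within a pair does not depend on that scaling. The testis form as a share of its pair, on counts per kb of exon, was lower in KO in all 4 pairs at both ages. The libraries did not overlap, but how many pairs of genes at large separate in this way was not counted. Cox8c made up 4.20% and 7.20% of the sum of Cox8c and Cox8a in KO and 58.0% and 78.9% in WT at 19 dpp, and 51.3% and 67.1% in KO and 96.6% and 94.7% in WT at 25 dpp. Cyct made up 4.42% and 6.90% of the cytochrome c RNA in KO and 41.0% and 55.2% in WT at 19 dpp, and 40.1% and 43.9% in KO and 84.4% and 80.1% in WT at 25 dpp. For both, on this scale, the testis form was the minor form in KO at 19 dpp and the major form in WT at 25 dpp. For Cyct this rests on the length scaling: on raw counts it made up 0.882% and 1.41% in KO at 19 dpp and 51.1% and 43.7% in WT at 25 dpp, and the counts of Cycs are uncertain, as given above. Cox6b2 made up 6.06% and 8.94% of its pair in KO and 39.8% and 54.1% in WT at 19 dpp, and 38.6% and 43.2% in KO and 84.3% and 80.3% in WT at 25 dpp. Cox7b2 made up 21.7% and 41.7% in KO and 85.4% and 90.1% in WT at 19 dpp, and 83.0% and 88.5% in KO and 97.9% and 97.3% in WT at 25 dpp. The mean difference of KO minus WT at 19 dpp was −62.7 points for Cox8c, −56.1 for Cox7b2, −42.4 for Cyct and −39.5 for Cox6b2. At 25 dpp it was −36.5, −11.9, −40.3 and −41.4 points in the same order of genes. The exact two-sided permutation p was 0.333 in each, the smallest that 2 against 2 libraries can give.

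**Figure D2:**
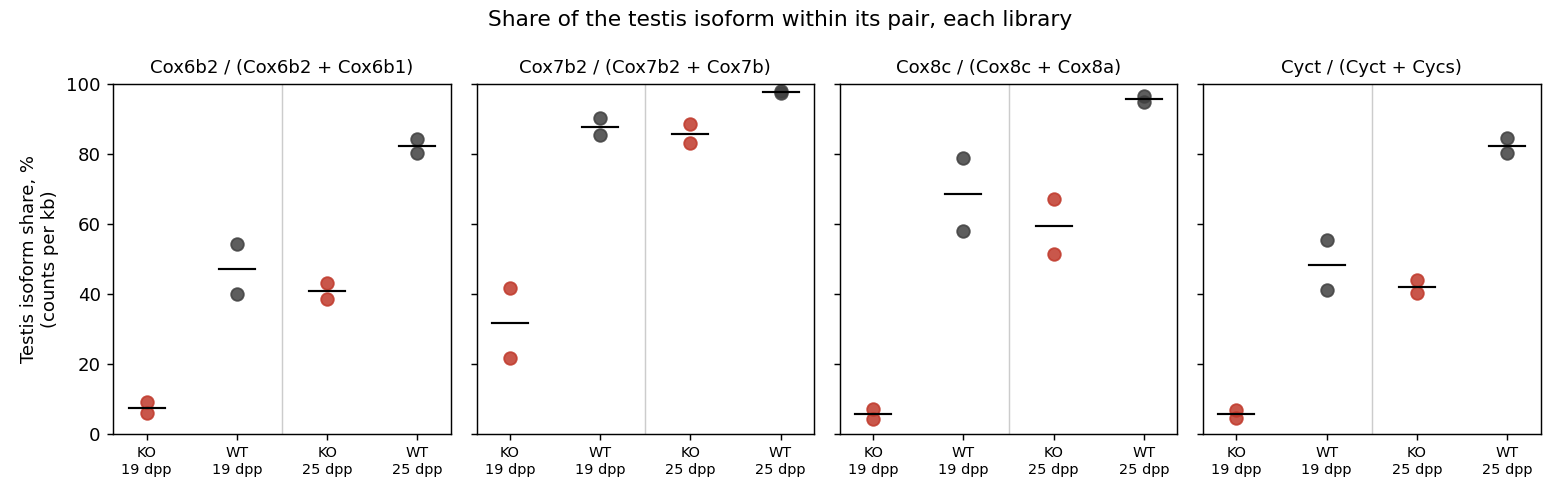
Share of the testis isoform in the summed level of its pair (percent, on counts per kb of exon) in each library, KO in red, WT in grey, with the group mean as a line. KO libraries lie below WT libraries of the same age in all 4 pairs, and the gap for Cox7b2 at 25 dpp is the narrowest, 83.0% and 88.5% against 97.9% and 97.3%.

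Ranked by level per kb of exon among the 76 genes, Cox8c was at rank 64 in KO and rank 1 in WT at 19 dpp, and at rank 3 in KO and rank 1 in WT at 25 dpp. Cycs was at rank 1 in KO and rank 16 in WT at 19 dpp, and at rank 14 in KO and rank 49 in WT at 25 dpp. The 4 testis isoforms together took 0.413% and 0.711% of the summed CPM of the 76 genes in KO and 4.11% and 6.97% in WT at 19 dpp, and 3.56% and 4.69% in KO and 13.6% and 12.7% in WT at 25 dpp. Isoforms known from muscle and lung gave a contrast to this. Cox8b and Cox6a2, of heart and skeletal muscle, lay at or under 0.284 CPM in every library and failed the filter. Cox4i2, known from lung, stayed under 1.4 CPM and was called in no comparison. Cox6a1, the general partner of Cox6a2, had 68.5 and 75.7 CPM in KO and 111 and 113 CPM in WT at 25 dpp (−0.64, adjusted p = 0.00444). Cox7a1, a muscle and fat form, had 6.62 and 6.92 CPM in KO and 7.13 and 9.16 CPM in WT at 19 dpp (−0.27, adjusted p = 0.568), and 5.79 and 9.19 CPM in KO and 3.98 and 4.62 CPM in WT at 25 dpp (0.80, SE 0.299, adjusted p = 0.0467). That last call was lost when any 1 of 6 of the 8 libraries was left out (adjusted p between 0.0512 and 0.287), and the value was −0.61 with Sertoli scaling. Cox7a1 made up 18.5% and 18.5% of the sum of Cox7a1 and Cox7a2, per kb of exon, in KO and 15.1% and 16.0% in WT at 19 dpp, and 14.5% and 19.9% in KO and 2.96% and 4.15% in WT at 25 dpp. Unlike the testis forms, its share was thus higher in KO at both ages with no overlap (exact two-sided permutation p = 0.333 at each age). At 19 dpp Cox7a1 itself was not higher in KO, while Cox7a2 was lower (−0.57). Cox4i2, at its low level, also had a higher share of its pair with Cox4i1 in KO. That share was 1.68% and 0.901% in KO and 0.593% and 0.761% in WT at 19 dpp. At 25 dpp it was 0.584% and 0.802% in KO and 0.294% and 0.207% in WT. Separation over other pairs of genes was not counted.

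The classes beyond the testis isoforms had few calls at 19 dpp. Of 7 complex I core genes 3 fell, of 29 accessory genes 1 rose and 2 fell, of 7 assembly factors 2 fell (Ndufaf3, described further on, by 2.89 on the log2 scale), of 8 complex III genes 1 fell, of 10 general complex IV genes 1 rose (Cox7b, given above) and 1 fell, and of 4 complex II genes none was called. Ndufv2, a core subunit with an iron-sulfur centre, had 53.1 and 62.1 CPM in KO and 92.3 and 105 CPM in WT (−0.78, SE 0.158, adjusted p = 0.0148). Cox7a2, a general complex IV subunit, had 51.5 and 53.7 CPM in KO and 70.7 and 85.1 CPM in WT (−0.57, SE 0.151, adjusted p = 0.0343). The core subunit Ndufs1 (−0.47, adjusted p = 0.0354), the accessory subunits Ndufb6 (−0.57, adjusted p = 0.0363) and Ndufa9 (−0.51, adjusted p = 0.0364), and Uqcrc2 of complex III (−0.55, adjusted p = 0.0264) fell as little. Exons of Ndufs1, Ndufb6 and Uqcrc2 overlap a gene on the other strand (Eef1b2, Smim27 and Pdzd9), which makes their counts uncertain. Pdzd9 had 0.293 and 0.426 CPM in KO and 1.64 and 6.15 CPM in WT at 19 dpp. At 25 dpp it had 2.33 and 3.73 CPM in KO and 211 and 160 CPM in WT, where Uqcrc2 had 204 and 212 CPM. The overlap thus weighs most on the values of Uqcrc2 that use WT at 25 dpp. These 6 calls were lost without replicate 1 of KO, replicate 2 of KO or replicate 2 of WT at 19 dpp (adjusted p between 0.0520 and 0.238), and the 13 lower calls of the set became 0, 5 and 5 in the same order of libraries. All but Ndufv2 were also lost without either KO library of 25 dpp, which took the 13 to 7 in each case, and Ndufb6 and Ndufs1 without replicate 1 of WT at 19 dpp (adjusted p = 0.0624 and 0.0514). Of the 3 higher calls none was left without replicate 1 of KO or replicate 2 of WT at 19 dpp, and 1 was left without the other library of either group.

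At 25 dpp the fall was broad under TMM scaling. Of the 74 genes 8 were higher and 52 lower in KO, where 26.1% of all genes were higher and 37.4% lower. The median was −0.68, against −0.12 over all genes, and without the testis isoforms it was −0.65 with 8 higher and 48 lower of 70. With total counts as the scaling, which moved the median of all genes to 0.34, the split was 12 higher and 27 lower of 74 with a median of −0.21, where 38.5% of all genes were higher and 30.4% lower. Of 29 accessory genes of complex I 22 fell and 2 rose (median −0.81), of 7 core genes 6 fell (−0.53), of 8 complex III genes 7 fell (−0.91), of 10 general complex IV genes 7 fell and 2 rose (−0.72), of 4 complex II genes 2 fell (−0.31), and of 7 assembly factors 3 fell and 1 rose (−0.44). The 14 genes not called were Cox4i2, Cox6b1, Ndufa3, Ndufa10, Ndufab1, Ndufaf1, Ndufaf5, Ndufaf6, Ndufc2, Ndufs7, Ndufv3, Sdhc, Sdhd and Uqcr11, with log2 fold changes between −0.44 and 0.45. The 8 higher calls became 5 without replicate 2 of KO at 25 dpp.

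Uqcrq, a small subunit of complex III, had 47.7 and 50.5 CPM in KO and 242 and 191 CPM in WT at 25 dpp (−2.14, SE 0.186, adjusted p = 3.08e-04). At 19 dpp it had 42.4 and 44.2 CPM in KO and 53.5 and 72.0 CPM in WT, which did not pass the test (−0.54, adjusted p = 0.0695). The WT libraries of 25 dpp thus stood apart from the other 6. Ndufa12, an accessory subunit of complex I, showed the same order of groups, with 26.1 and 30.9 CPM in KO and 127 and 97.2 CPM in WT at 25 dpp (−1.97, SE 0.185, adjusted p = 3.21e-04). It had 23.3 and 25.5 CPM in KO and 30.2 and 34.7 CPM in WT at 19 dpp (−0.41, adjusted p = 0.141), and its counts are uncertain because it shares a near-identical stretch with Gm15920. Cox7a2 had 60.2 and 65.1 CPM in KO and 230 and 189 CPM in WT at 25 dpp (−1.74, SE 0.154, adjusted p = 3.15e-04). Uqcrc1, a large core protein of complex III, had 121 and 130 CPM in KO and 385 and 325 CPM in WT at 25 dpp (−1.50, SE 0.138, adjusted p = 3.15e-04). Ndufv2 had 87.4 and 101 CPM in KO and 256 and 212 CPM in WT at 25 dpp (−1.31, SE 0.159, adjusted p = 5.62e-04). Cox4i1, the general form of the largest nuclear complex IV subunit, had 190 and 181 CPM in KO and 382 and 360 CPM in WT at 25 dpp (−1.0, SE 0.123, adjusted p = 5.89e-04). In each of these genes both WT libraries of 25 dpp lay above all other libraries, and the share of all genes that do so was not counted. Exons of Cox4i1 overlap Emc8 on the other strand, so its counts are uncertain; Emc8 was lower in those WT libraries, at 47.2 and 46.2 CPM in KO and 30.1 and 36.4 CPM in WT at 25 dpp. Complex II, which also serves the citric acid cycle, had the median nearest to 0 of the classes at 25 dpp. Sdha, its flavoprotein, had 216 and 232 CPM in KO and 296 and 295 CPM in WT at 25 dpp (−0.40, adjusted p = 0.0135), with 0.07 under scaling to total counts. Sdhb, its iron-sulfur subunit, had 74.0 and 79.9 CPM in KO and 113 and 103 CPM in WT (−0.49, adjusted p = 0.0127). Both calls were lost without replicate 1 of KO or replicate 1 of WT at 25 dpp, with adjusted p-values between 0.0612 and 0.111.

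**Figure D3:**
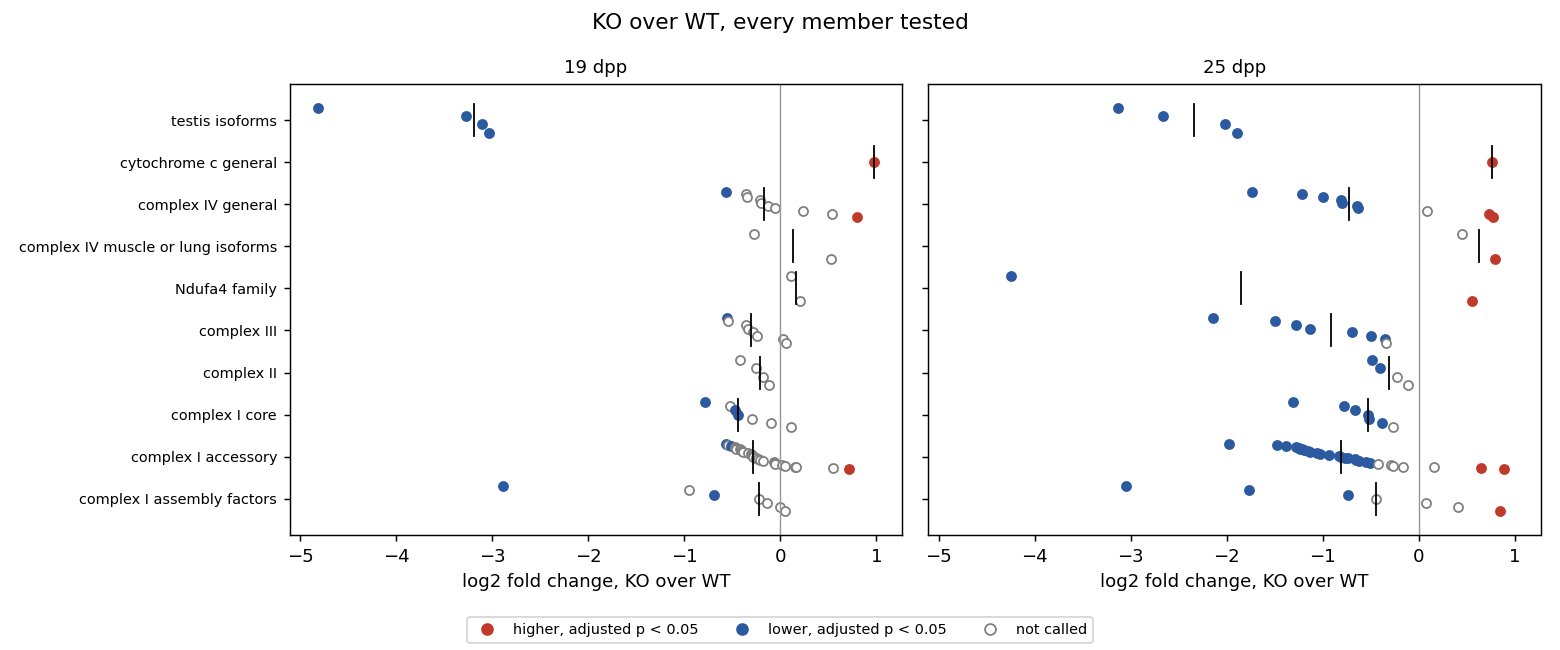
Log2 fold change of KO over WT for each of the 74 genes tested, by class, at 19 dpp (left) and 25 dpp (right), with the class median as a black line and filled points for genes past an adjusted p of 0.05. The testis isoforms lie lowest as a class at both ages (medians −3.19 and −2.34), and most general classes have medians below 0 at 25 dpp under TMM scaling, with the few genes called higher at 25 dpp turning lower under Sertoli scaling.

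The assembly factor Ndufaf3 changed as much as the testis isoforms. It had 7.88 and 8.34 CPM in KO and 39.6 and 80.5 CPM in WT at 19 dpp (−2.89, SE 0.381, adjusted p = 0.00775). It had 29.3 and 46.4 CPM in KO and 342 and 286 CPM in WT at 25 dpp (−3.05, SE 0.377, adjusted p = 7.91e-04). Its 4 groups stood in the same order as those of Cox6b2, and the 19 dpp call was lost without replicate 1 of KO at that age (adjusted p = 0.0897). Exons of Ndufaf3 overlap Impdh2 on the other strand, and the strand setting of the counting is not given, so reads of the overlap cannot be assigned with certainty. Impdh2 had 75.4 and 90.7 CPM in KO and 131 and 116 CPM in WT at 19 dpp, and 128 and 107 CPM in KO and 219 and 146 CPM in WT at 25 dpp. Ndufa4l2, a paralogue of Ndufa4 known from cells low in oxygen, had 4.15 and 1.62 CPM in KO and 1.70 and 3.56 CPM in WT at 19 dpp (0.11, adjusted p = 0.942). It had 1.49 and 1.99 CPM in KO and 39.3 and 26.8 CPM in WT at 25 dpp (−4.25, SE 0.568, adjusted p = 8.54e-04), so 6 libraries lay at a few CPM and the WT libraries of 25 dpp far above them. Its exons overlap Shmt2 on the other strand, which was lower in those WT libraries, at 32.0 and 29.6 CPM in KO and 19.1 and 27.1 CPM in WT at 25 dpp.

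The 8 genes higher in KO at 25 dpp were Cycs, Cox7b, Cox8a and Cox7a1, given above, with Ndufb11, Ndufa1, Ndufa4 and Ndufaf4, and all 8 were lower in KO with Sertoli scaling (between −0.86 and −0.54, above the all-gene median of −1.56). They include all 3 genes of the set on chromosome X, which are Cox7b, Ndufb11 and Ndufa1. Over all genes, the share of X-linked genes called higher was not counted. Exons of Ndufb11 overlap Rbm10 on the other strand, which had 48.4 and 53.5 CPM in KO and 31.4 and 28.6 CPM in WT at 25 dpp, so the counts of Ndufb11 are uncertain. Ndufb11, an accessory subunit of complex I, had 54.3 and 49.9 CPM in KO and 30.0 and 33.3 CPM in WT at 19 dpp (0.72, SE 0.148, adjusted p = 0.0152), a call lost when any 1 of the 4 libraries of that age was left out (adjusted p between 0.0560 and 0.135), and a value of −0.19 with Sertoli scaling. It had 39.6 and 37.2 CPM in KO and 19.6 and 21.7 CPM in WT at 25 dpp (0.89, SE 0.148, adjusted p = 0.00166). Ndufa1, another accessory subunit, had 41.3 and 46.1 CPM in KO and 51.0 and 55.3 CPM in WT at 19 dpp (−0.28, adjusted p = 0.238). It had 56.6 and 64.2 CPM in KO and 34.8 and 42.3 CPM in WT at 25 dpp (0.65, SE 0.158, adjusted p = 0.00832), a call lost without replicate 2 of KO at 25 dpp (adjusted p = 0.0537). All 3 X-linked genes fell with age in WT under TMM scaling, with log2 fold changes of −0.80 for Cox7b, −0.61 for Ndufb11 and −0.46 for Ndufa1, and were at 0.10, 0.29 and 0.43 with Sertoli scaling, where the median of all genes was 0.92. The call of Ndufa1 with age was lost when any 1 of 6 of the 8 libraries was left out (adjusted p between 0.0508 and 0.134). On an autosome, Ndufa4, now counted with complex IV, had 46.7 and 49.5 CPM in KO and 29.6 and 35.6 CPM in WT at 25 dpp (0.56, SE 0.150, adjusted p = 0.0123). The assembly factor Ndufaf4 had 19.6 and 19.0 CPM in KO and 9.00 and 12.4 CPM in WT (0.85, SE 0.223, adjusted p = 0.0111). Without replicate 1 of KO at 25 dpp Ndufaf4 and Cox7b were not called (adjusted p = 0.0522 and 0.0536), and without replicate 2 Ndufa4 was not (adjusted p = 0.0610).

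**Figure D4:**
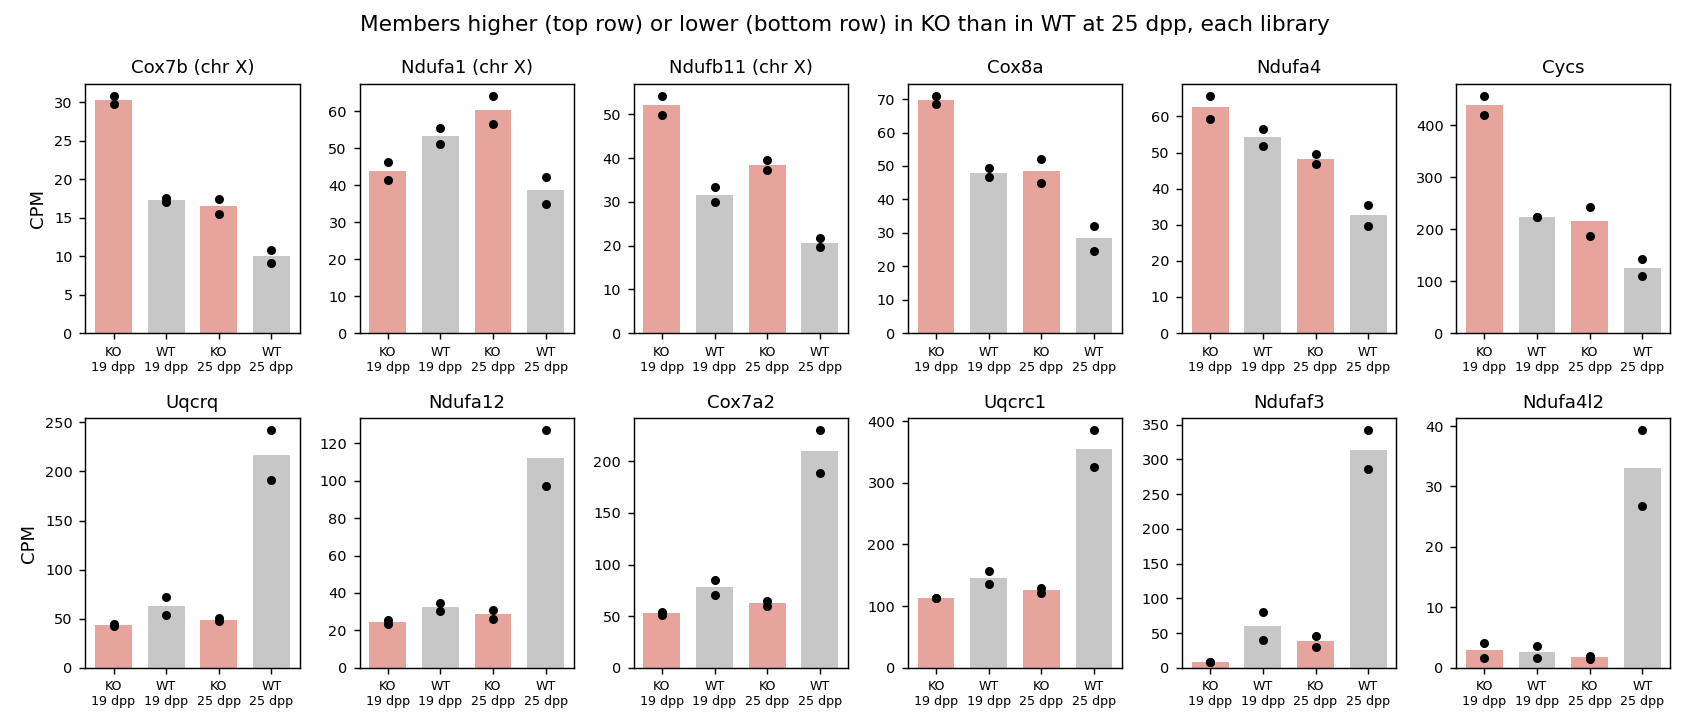
CPM of 12 genes in each library (black points) with the group mean as a bar, KO in red and WT in grey, with genes higher in KO at 25 dpp under TMM scaling in the upper row (all lower with Sertoli scaling) and genes lower in KO below. In the lower row the WT bar of 25 dpp exceeds the other 3, for example 242 and 191 CPM of Uqcrq against 47.7 and 50.5 CPM in KO.

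The number of genes called with age differed by genotype, in this set as over all genes. In WT 47 of the 74 genes rose and 9 fell from the younger to the older age, where 60.3% of all genes were called, 34.9% higher and 25.4% lower, and the median was 0.55 (0.01 over all genes). With total counts as the scaling, which moved the median of all genes to −0.51, 20 rose and 17 fell, where 27.0% of all genes were higher and 41.6% lower. The 9 that fell became 5 without replicate 2 of the younger or replicate 1 of the older WT libraries. In KO 8 rose and 4 fell, near the shares over all genes, of which 10.2% were higher and 8.87% lower (19.1% called). The median in KO was 0.13 (0.00 over all genes). The 8 that rose in KO were the 4 testis isoforms, the assembly factors Ndufaf3 and Ndufaf7, Ndufv2 and Uqcrc2. The 4 that fell in KO were Cycs, Cox7b, Cox6b1 and the accessory subunit Ndufv3. Ndufv3 had 21.0 and 26.9 CPM at 25 dpp and 44.8 and 45.9 CPM at 19 dpp in KO (−0.92, adjusted p = 0.0217), and 32.1 and 32.1 CPM at 25 dpp and 25.8 and 35.9 CPM at 19 dpp in WT (0.06, adjusted p = 0.825). The fall of Ndufv3 was not called when any 1 of the 4 KO libraries was left out (adjusted p between 0.0685 and 0.135). Without replicate 1 of KO at 19 dpp the counts of genes that rose and fell in KO were 0 and 0, without replicate 2 they were 4 and 1, and without replicate 1 or 2 of KO at 25 dpp they were 5 and 0 or 2 and 1.

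The test of the difference itself, the KO effect at 25 dpp minus that at 19 dpp, called 1 gene higher and 15 lower, where 19.1% of all genes were called, 7.68% higher and 11.4% lower. The median was −0.42, against −0.02 over all genes. The 15 included Ndufa4l2, Uqcrq, Ndufa12, Uqcrfs1, Uqcr10, Cox7a2, Cox5a, Uqcrc1, Ndufb4, Ndufa7, Ndufb8, Ndufa8, Ndufa9 and Cox4i1, and the gene called higher was Ndufa1. Of the complex III genes 4 of 8 and of the general complex IV genes 3 of 10 were among them, while no testis isoform was. With total counts the counts were 8 higher and 6 lower, where 23.8% of all genes were higher and 8.42% lower. The 15 lower calls became 5 without either KO library of 19 dpp, 7 without replicate 1 of WT at 19 dpp, 9 without replicate 1 of WT at 25 dpp, and 3 or 7 without the first or the other KO library of 25 dpp. Ndufa1 was called without replicate 2 of WT at 25 dpp and not when any of the other 7 libraries was left out (adjusted p between 0.0568 and 0.118).

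**Figure D5:**
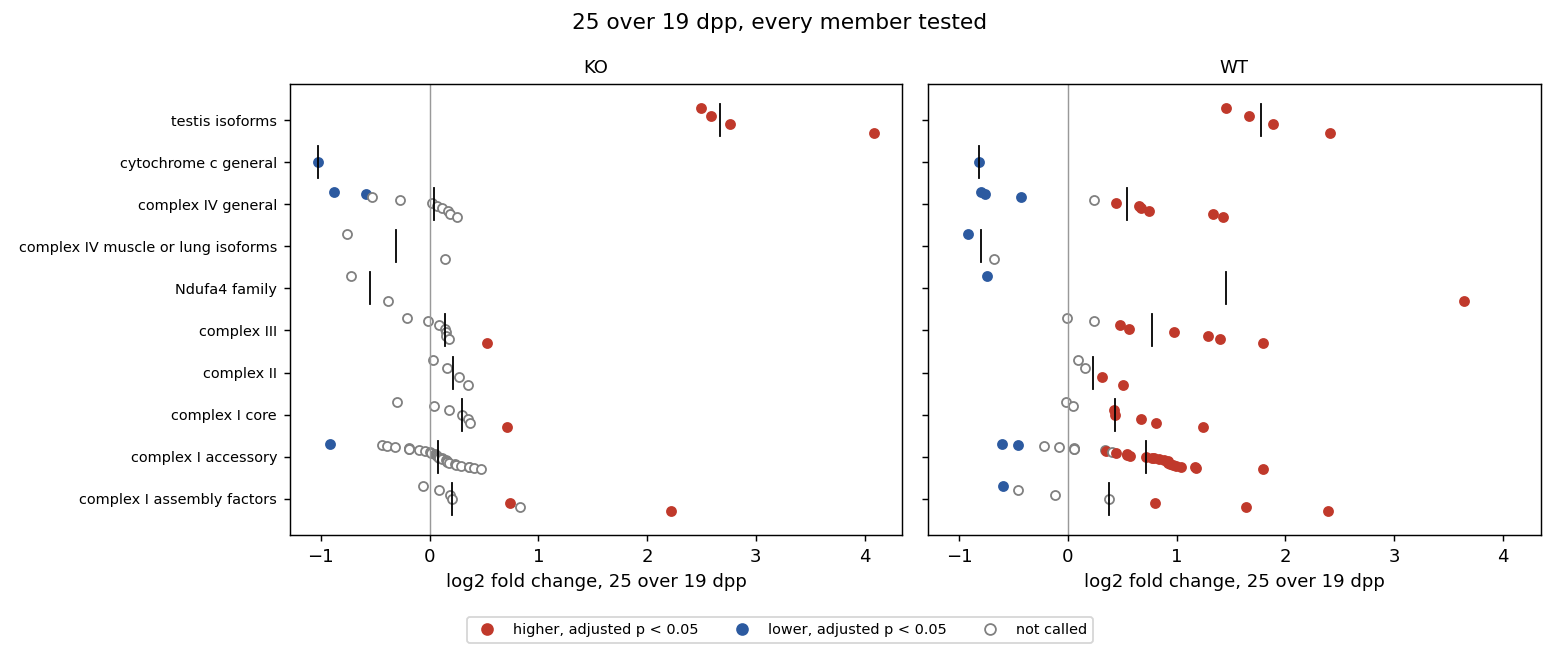
Log2 fold change of 25 over 19 dpp for each of the 74 genes tested, by class, in KO (left) and WT (right), with the class median as a black line and filled points for genes past an adjusted p of 0.05. In KO the called genes beyond the testis isoforms (median 2.67) are few, and in WT most classes have medians above 0 under TMM scaling (0.72 for the complex I accessory genes).

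Other genes of mitochondrial energy supply were described from lists, whose counts stand beside 8.80% of all genes higher and 13.2% lower in KO at 19 dpp, and 26.1% higher and 37.4% lower at 25 dpp. Of 17 ATP synthase genes 1 rose and 1 fell in KO at 19 dpp, and 1 rose and 9 fell at 25 dpp (median −0.57). Atp5o, of the stalk, had 44.8 and 51.8 CPM in KO and 99.7 and 94.2 CPM in WT at 25 dpp (−1.0, adjusted p = 7.72e-04). Of 31 genes tested for assembly of complexes III and IV and related proteins 1 fell at 19 dpp, and 6 rose and 13 fell at 25 dpp (median −0.37). The complex III assembly factor Uqcc2 was that 1 gene (−1.0 at 19 dpp, lost without replicate 1 of KO or replicate 2 of WT of that age). It fell at 25 dpp too, with 49.8 and 57.3 CPM in KO and 231 and 181 CPM in WT at 25 dpp (−1.95, adjusted p = 3.30e-04). Of 11 further assembly factors of complexes I and II none was called at 19 dpp, and 3 rose and 2 fell at 25 dpp. Of 14 regulators of mitochondrial biogenesis 2 fell at 19 dpp, and 5 rose and 4 fell at 25 dpp. The 5 that rose included Nrf1 (0.50, adjusted p = 0.0194) and Gabpa (0.46, adjusted p = 0.0175), whose products bind the NRF1 and ETS motifs. The 4 that fell were Tfb1m (−1.20, adjusted p = 0.00293), Esrra (−1.11, adjusted p = 0.00157), Ppargc1a (−1.01, adjusted p = 0.0463) and Polg (−0.64, adjusted p = 0.00562). The call of Ppargc1a was lost when any 1 of 5 of the 8 libraries was left out (adjusted p between 0.0662 and 0.331). With total counts neither Ppargc1a nor Polg was called (−0.51 and −0.17). With Sertoli scaling Nrf1 was at −0.94 and Gabpa at −0.97. Without replicate 1 of KO or replicate 1 of WT at 25 dpp neither was called (adjusted p between 0.0516 and 0.103), nor Gabpa without replicate 2 of KO (0.0584) or Nrf1 with DESeq2 size factors (0.0541).

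The citric acid cycle list, with pyruvate dehydrogenase, held another pair of this kind. Of its 17 genes 2 rose and 3 fell at 19 dpp, near the shares over all genes (8.80% and 13.2%), and 6 rose and 9 fell at 25 dpp (26.1% and 37.4% over all genes). Pdha2, the testis form of the E1 alpha subunit of pyruvate dehydrogenase, had 5.74 and 9.71 CPM in KO and 54.0 and 102 CPM in WT at 19 dpp (−3.33, SE 0.443, adjusted p = 0.00810). It had 41.1 and 70.6 CPM in KO and 277 and 231 CPM in WT at 25 dpp (−2.19, SE 0.416, adjusted p = 0.00392). Its X-linked general partner Pdha1 had 58.9 and 50.9 CPM in KO and 32.4 and 31.6 CPM in WT at 19 dpp (0.78, SE 0.169, adjusted p = 0.0181), and 38.5 and 35.4 CPM in KO and 14.8 and 18.6 CPM in WT at 25 dpp (1.15, SE 0.171, adjusted p = 0.00110). The groups did not overlap for either gene at either age, and the share of all genes without such overlap was not counted. With Sertoli scaling Pdha1 was at −0.13 at 19 dpp and −0.28 at 25 dpp, and Pdha2 at −4.25 and −3.62. At 19 dpp Pdha1 was not called when any 1 of the 4 libraries of that age was left out (adjusted p between 0.0567 and 0.156), nor Pdha2 without replicate 1 of KO (0.0869).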

How the data were processed

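The deposited tables hold raw read counts per gene for 8 libraries of whole testis RNA (Trizol, DNase, a stranded poly(A) kit, per the labels). Per the submitters' processing notes the tools named are STAR 2.7.0a and featureCounts 1.5.1, with build mm10. The annotation, the strand setting and the treatment of reads with several matches are not given in the sources used here. Each table had 55292 rows, of which 1205 repeat rows were left out.

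TMM scaling was used, and filterByExpr (by group) kept 23353 genes for the tests. Counts were fitted with edgeR 4.0.16 (R 4.3.3, robust quasi-likelihood test, 1 mean per group, all 8 libraries, 4 residual degrees of freedom), with Benjamini-Hochberg adjustment over all genes tested and a threshold of 0.05. There were 5 contrasts. The SE of a log2 fold change is its size over the square root of the F statistic. The fit was also run on simulated counts in which few genes changed, in equal numbers up and down. That run cannot check the scaling where many genes change, as in these libraries. A count of 3, taken as the floor, is 0.0811 to 0.126 CPM, for counting error only.

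Shares of an isoform in its pair used counts per kb of union exon length (GENCODE M21) and an exact permutation test over libraries. Near-identical copies were matches of at least 97% identity over 100 bases or more. CpG sites and motifs were counted in RefSeq promoter windows.

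The members, their classes and the gene lists were chosen with earlier results of these data known. Genes named with values were the isoforms, their partners and the Ndufa4 family. In each other class they were the gene with the highest mean CPM and, in each contrast, the called genes with the largest rise and fall, 32 genes in all; 1 gene that the rule names is not reported here. Those named from the lists of other mitochondrial genes, the genes named as overlapping a member, and genes listed by name as called or not called were picked after their values were seen.

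Alternatives were DESeq2 1.42.0 size factors, total counts and a sum of 22 Sertoli markers as scalings, no filter, at least 5 CPM in 2 libraries, the DESeq2 Wald test, limma 3.58.1 with voom, a fit of the 2 groups compared, a replicate block, no mitochondrially encoded genes, raw counts for the shares, and each library left out in turn. With 1 library left out, 3 residual degrees of freedom remained, and the lone library of its group is assumed to vary like the other groups.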

Additional observations from a re-analysis of the deposited data

Results flagged for a closer look

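In 8 of the 32 genes named by rule the KO effect differed between 25 and 19 dpp by the test of the difference itself (edgeR quasi-likelihood test, adjusted p under 0.05). Over all genes 19.1% were called in this test. The rule names the called genes with the largest rise and fall in this same contrast, so it partly sets the count of 8. The difference, on the log2 scale, was largest for Ndufa4l2, at −4.36 (adjusted p = 0.0119), where both WT libraries of 25 dpp stood far above the other 6. It was −1.61 for Uqcrq (adjusted p = 0.00881) and −1.14 for Uqcrc1 (0.0102), both of complex III. It was −1.56 for Ndufa12 (0.00955) and −0.71 for Ndufa9 (0.0418), both of complex I. Of complex IV, Cox7a2 stood at −1.17 (0.0125) and Cox4i1 at −0.64 (0.0407). In these 7 genes the log2 fold change of KO over WT was lower at 25 dpp than at 19 dpp. Ndufa1, on the X chromosome, was the one gene with a positive difference, at 0.93 (0.0284), with KO below WT at 19 dpp and above it at 25 dpp.

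All 8 kept their sign when any 1 library was left out. Without replicate 1 or 2 of KO at 19 dpp 5 or 4 of the 8 were no longer called, without replicate 1 or 2 of KO at 25 dpp 6 or 3, without replicate 1 or 2 of WT at 19 dpp 3 or 2, and without replicate 1 or 2 of WT at 25 dpp 3 or 0. Markers of late spermatocytes and spermatids were highest in the same WT libraries of 25 dpp, and their part in these differences was not tested.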

How the results depend on the processing

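Over the 150 log2 fold changes of the genes named by rule and 2665 alternative values of them, 2363 stayed on their side of the threshold (62 of these, called under neither setting, changed sign), 73 passed it only under the alternative, 202 no longer passed it, and 27 reversed with a call under one setting or both. The cause was not tested. Sertoli scaling moved the median of all genes to −0.87 at 19 dpp and −1.56 at 25 dpp for KO over WT, and to 0.92 with age in WT, and 22 of the reversals were there. At 19 dpp they were Cox6b1 −0.67, Cox7b −0.10, Ndufa4 −0.70, Ndufb11 −0.19 and Ndufaf4 −0.87. At 25 dpp they were Cox6b1 −1.34, Cox7a1 −0.61, Cox7b −0.70, Cox8a −0.65, Cycs −0.64, Ndufa4 −0.86, Ndufb11 −0.54, Ndufa1 −0.77 and Ndufaf4 −0.56. With age in WT they were Cox6b1 0.47, Cox7b 0.10, Cox8a 0.13, Cycs 0.07, Ndufa4 0.16, Ndufb11 0.29, Ndufa1 0.43 and Ndufaf4 0.27. Total counts gave Sdha 0.07 at 25 dpp and, with age in WT, Ndufs1 −0.10, Sdha −0.21, Sdhb −0.01 and Uqcrc2 −0.04.

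Counts of respiratory chain genes called moved as follows. At 19 dpp the 3 higher became 0 with Sertoli scaling and 5 with DESeq2, and the 13 lower became 67, 20 and 29 with Sertoli scaling, a 5 CPM filter and DESeq2. At 25 dpp the 8 higher became 0 with Sertoli scaling and the 52 lower 27 with total counts. With age in WT the 47 higher became 20 with total counts and the 9 lower 17 with total counts and 0 with Sertoli scaling. With age in KO the 8 higher became 16 with DESeq2 and the 4 lower 8 with DESeq2 and 0 with Sertoli scaling. For the difference of KO effects the 1 higher became 8, 0 and 3 with total counts, Sertoli scaling and DESeq2, and the 15 lower 23, 6, 23 and 38 with DESeq2 size factors, total counts, the 5 CPM filter and DESeq2.

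With each library left out in turn, the counts of higher and lower genes ranged from 0 to 4 and 0 to 14 at 19 dpp, 5 to 8 and 40 to 50 at 25 dpp, 32 to 44 and 5 to 9 with age in WT, 0 to 8 and 0 to 5 with age in KO, and 0 to 2 and 3 to 20 for the difference. The KO minus WT difference in share ranged from −46.6 to −32.3 points at 19 dpp and −43.7 to −39.0 at 25 dpp for Cox6b2, −66.1 to −46.1 and −14.7 to −9.09 for Cox7b2, −73.2 to −52.3 and −44.4 to −28.6 for Cox8c, and −49.5 to −35.3 and −42.4 to −38.1 for Cyct. On raw counts it was −35.9 for Cox6b2, −21.9 for Cox7b2 and −35.1 for Cyct at 25 dpp, and −14.3 for Cyct at 19 dpp.

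A fit with the replicate number as a block gave 3 higher and 12 lower at 19 dpp, 8 and 51 at 25 dpp, 45 and 9 with age in WT, 8 and 4 with age in KO, and 1 and 16 for the difference. Same-numbered libraries deviated from their group means with correlations between −0.119 and 0.502, so the numbers were not taken to pair the libraries. With 2 libraries in each group the exact tests of shares cannot pass the threshold at any depth.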

Other observations

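The markers of other tissues in these libraries were uneven. The summed level of 6 epididymis genes was 15.1 CPM in replicate 1 of KO at 25 dpp and at most 0.369 CPM in the other 7 libraries. The summed level of 8 Leydig cell genes was 33.3 and 71.9 CPM in KO and 342 and 512 CPM in WT at 25 dpp, and 476 and 481 CPM in KO and 93.0 and 460 CPM in WT at 19 dpp. That of 8 genes of elongating spermatids was 3447 and 498 CPM in WT at 25 dpp and at most 1.11 CPM in the other 6 libraries, so the WT libraries of 25 dpp differed from each other in this class. The part of these differences in the results on the respiratory chain was not tested.

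By sequence, 16 of the 76 genes share a stretch of at least 97% identity over 100 bases with another gene of GENCODE M21, so their counts are uncertain. Not all of these other genes have a row in the count tables. Cycs matches 14 such genes. Among them Gm10053 had 16.0 and 15.7 CPM in KO and 7.93 and 8.45 CPM in WT at 19 dpp, and 7.95 and 8.34 CPM in KO and 4.33 and 4.68 CPM in WT at 25 dpp, the same order of groups as Cycs. Exons of 21 of the 76 genes overlap those of another protein-coding gene, 3 of them on the same strand.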
